A study of Mus musculus with 8 samples.

Results

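The 42 genes described here encode the machinery that copies DNA in S phase. They were chosen by symbol, by a rule on what their products are known to do. The rule uses no measured value, but they were chosen with earlier results of these data known. Of them, 10 license replication origins, 5 activate the replicative helicase, 13 work at the fork, 5 supply nucleotides, 3 copy chromatin, and 6 are E2F factors or E cyclins. All 42 were among the 23238 gene symbols in the files, and all 42 were among the 13347 genes that passed the filter on low counts and were tested.

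Stromal cells of the uterus were taken from ovariectomized mice (strain C57BL/6-ICR per the labels), in which removal of the ovaries takes away the main source of estradiol. The 4 groups, with 2 libraries each, were Atg7d/d mice injected with E2 (estradiol), Atg7d/d mice injected with oil, Atg7f/f mice injected with E2 and Atg7f/f mice injected with oil. Atg7d/d denotes Atg7f/f;Amhr2cre mice, in which Cre under the Amhr2 promoter deletes the floxed Atg7 gene in mesenchymal cells of the uterus. Atg7 encodes an enzyme that activates the conjugation steps of autophagy. Atg7d/d and Atg7f/f stroma are called deleted and control stroma below. Control mice carried the floxed alleles too, and a group with Cre alone was not analysed here, so the presence of Cre and the loss of Atg7 cannot be told apart. The dose of estradiol, the time after injection and the way stromal cells were separated are not given in the labels. Nor is it stated whether a library held RNA of 1 animal or of a pool, so the p-values given here cover the spread between these libraries alone, which may be technical.

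Libraries held 5458390 to 6951080 counts and 15527 to 15963 symbols with a read. The kit reads the 3′ ends of transcripts, and levels are given as CPM (counts scaled to a common library total) with no length correction, so they are compared between samples and not between genes. Atg7 had 23 and 22 reads after estradiol and 21 and 33 reads in oil in deleted stroma, against 20 and 23 reads after estradiol and 22 and 32 reads in oil in control stroma. The labels do not say which part of Atg7 is removed, and reads from the 3′ end of the transcript cannot check a deletion that lies elsewhere in the gene. On the second principal component of all tested genes (12.3% of the variance), control oil library 1 lay at −43.4 and deleted oil library 1 at −13.8, while oil libraries 2 lay at 32.3 in deleted and 34.0 in control stroma. The summed level of 12 epithelial markers was 1357 and 1822 CPM after estradiol and 11153 and 4697 CPM in oil in deleted stroma, against 1293 and 2863 CPM after estradiol and 17884 and 5981 CPM in oil in control stroma. That of 12 stromal fibroblast markers was 8832 and 8201 CPM after estradiol and 2457 and 3088 CPM in oil in deleted stroma, against 8619 and 6106 CPM after estradiol and 2055 and 2535 CPM in oil in control stroma. The sums of 8 smooth muscle markers were 6212 and 7156 CPM after estradiol and 3050 and 4017 CPM in oil in deleted stroma, against 6433 and 6588 CPM after estradiol and 1597 and 3515 CPM in oil in control stroma. Of 5 erythroid markers 0 were called up after estradiol in deleted and 4 in control stroma, against 13.1% and 15.8% of all tested genes. Their log2 fold change was positive for 4 in each genotype, and the test of a different response between genotypes called 0. Their sum was 350 and 383 CPM after estradiol and 233 and 241 CPM in oil in deleted stroma. In control stroma their sum was 495 and 276 CPM after estradiol and 163 and 199 CPM in oil. That of 10 leukocyte markers was 121 and 71.2 CPM after estradiol and 78.1 and 90.0 CPM in oil in deleted stroma, against 71.4 and 45.3 CPM after estradiol and 91.7 and 85.9 CPM in oil in control stroma. The sum of 8 endothelial markers ran from 692 to 1215 CPM over the 8 libraries. A sum does not show the spread within a list. After estradiol the log2 fold change was positive for 10 of 12 fibroblast and 6 of 8 smooth muscle markers in each genotype. The fibroblast marker Fbln1 had −2.08 in deleted and −1.26 in control stroma. Of the 12 epithelial markers 3 were positive in deleted and 2 in control stroma. None of the markers in these lists was at 0 in all libraries. Epithelial marker RNA was thus present in each library, and its sum was higher in the oil libraries than in the estradiol libraries of both genotypes.

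A cell licenses its origins when the origin recognition complex, Cdc6 and Cdt1 load the ring of Mcm2 to Mcm7 onto DNA. Cdc45 and the GINS complex then turn that ring into a moving helicase, polymerases synthesise the new strands behind it, and ribonucleotide reductase and thymidine enzymes supply their building blocks. E2F factors, released from pocket proteins when cyclin-dependent kinases act, bind to the promoters of many of these genes. In the uterus estradiol is a known mitogen of the epithelium, and its effect on stromal proliferation depends on progesterone and on the time of exposure.

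Promoters of the genes were examined first for the letters that E2F factors are known to bind. The RefSeq table of promoters (GRCm38.p6) spans 250 bases before to 50 bases after each start, and it listed 43 promoters of 37 of the 42 genes (none for Mcm4, Gins1, Gins2, Pole and Ccne2). An octamer of the E2F type (TTTGGCGC, TTTCCCGC, TTTGCCGC or TTTCGCGC, on either strand) stood in 15 of the 43 (34.9%), with 21 matches in all. It stood in 2.26% of the 32851 promoters in the table, in 3.74% of the 12887 promoters of tested genes and in 21.9% of 96 promoters of further replication genes. The following stretches, chosen because the match lies before the start, show the octamer in capitals with its neighbouring bases, read 5′ to 3′ on the strand that holds it.
Cdc6 (chr11:98907997-98908036, minus strand): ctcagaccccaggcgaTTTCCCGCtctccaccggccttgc
Orc1 (chr4:108579411-108579450, minus strand): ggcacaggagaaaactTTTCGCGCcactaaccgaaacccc
Mcm6 (chr1:128359792-128359831, minus strand): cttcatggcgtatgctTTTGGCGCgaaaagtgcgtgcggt
Mcm7 (chr5:138172025-138172064, plus strand): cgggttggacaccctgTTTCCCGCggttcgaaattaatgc
Gins3 (chr8:95633502-95633541, minus strand): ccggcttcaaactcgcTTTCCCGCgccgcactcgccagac
Pola1 (chrX:93632270-93632309, plus strand): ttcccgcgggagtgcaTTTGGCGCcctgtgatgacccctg
Uhrf1 (chr17:56304112-56304151, plus strand): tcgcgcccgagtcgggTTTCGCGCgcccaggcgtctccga
E2f7 (chr10:110745225-110745264, minus strand): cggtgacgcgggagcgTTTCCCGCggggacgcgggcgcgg

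Both whole stretches of 250 bases before the start that follow were chosen for contrast. Mcm5 holds overlapping octamers on opposite strands, in capitals, and Tk1, the gene with the largest estradiol response, holds none of the 4 octamers in its listed promoter.
Mcm5 (chr8:75109259-75109508, plus strand): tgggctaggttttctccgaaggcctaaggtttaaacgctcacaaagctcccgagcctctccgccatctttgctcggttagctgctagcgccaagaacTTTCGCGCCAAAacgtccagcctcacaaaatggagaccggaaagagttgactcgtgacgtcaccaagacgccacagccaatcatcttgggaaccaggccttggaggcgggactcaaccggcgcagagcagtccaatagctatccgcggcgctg
Tk1 (chr11:117826015-117826264, minus strand): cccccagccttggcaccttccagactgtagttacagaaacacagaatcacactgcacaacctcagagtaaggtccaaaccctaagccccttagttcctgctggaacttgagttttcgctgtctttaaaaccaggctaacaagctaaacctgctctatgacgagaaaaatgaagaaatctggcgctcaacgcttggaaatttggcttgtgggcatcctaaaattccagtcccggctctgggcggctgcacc

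Among other motifs, CCAAT, the letters bound by the factor NF-Y, stood on either strand in 26 of the 43 promoters (60.5%), against 37.4% of all promoters and 37.2% of those of tested genes. TTCCCGCC, which overlaps the E2F octamers, stood in 7 (16.3%, against 2.19% of all promoters and 3.8% of those of tested genes). TTTGAA, part of the element known from genes of later cell cycle phases, stood in 6 (14.0%, against 17.9% of all promoters and 11.9% of those of tested genes). The palindrome GGTCANNNTGACC, to which estrogen receptors bind, stood in 0 of the 43 promoters and in 0.07% of all promoters (0.00776% of those of tested genes). After estradiol 29.8% of all tested genes were called in control and 24.3% in deleted stroma, at an adjusted p below 0.05 in edgeR. In control stroma the 15 genes with an octamer had a median log2 fold change of 1.30 with 13 called. The 22 genes with a listed promoter and no octamer had a median of 1.66 with 14 called. In deleted stroma these medians were 1.22 with 10 called and 1.16 with 12 called. The 5 genes with no listed promoter had medians of 1.72 in control stroma (3 called) and 0.586 in deleted stroma (2 called). A match describes letters in a window and shows no binding, and no match says only that these letters are not in this window.

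Estradiol was accompanied by higher RNA of replication genes in stroma of both genotypes. The summed level of the 42 genes was 1019 and 1187 CPM after estradiol and 551 and 573 CPM in oil in deleted stroma, against 1259 and 1392 CPM after estradiol and 489 and 601 CPM in oil in control stroma. Estradiol libraries lay above all oil libraries in both genotypes, and both deleted libraries lay below both control libraries after estradiol. The ratio of the means was 1.96 in deleted stroma and 2.43 in control stroma. In bulk RNA, fewer cells in S phase and less replication RNA per cell cannot be told apart, and the part of the shifts in epithelial, fibroblast, smooth muscle, erythroid and leukocyte marker RNA in these results was not tested.

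**Figure D1:**
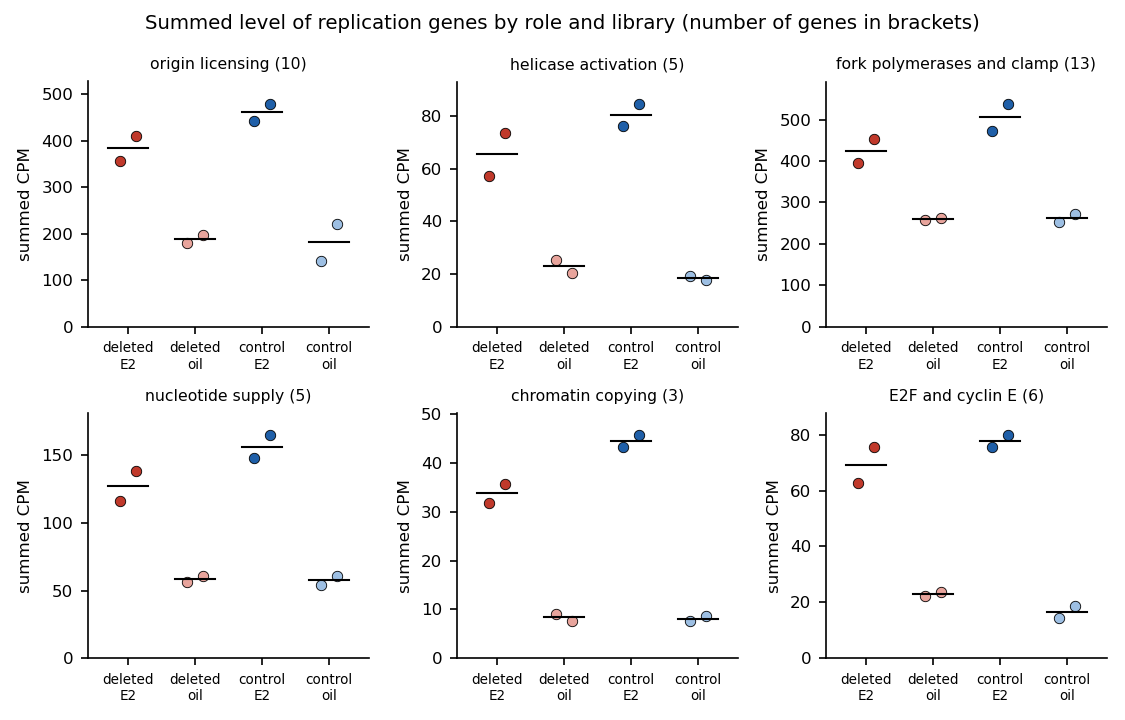
Summed CPM of the replication genes of each role, by library. Each point is 1 library, bars are means of 2 libraries, deleted groups stand left of control groups and estradiol left of oil. In each role the estradiol libraries lie above the oil libraries of their genotype, and after estradiol the deleted libraries have the lower mean.

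In deleted stroma 24 of the 42 genes rose after estradiol and 0 fell, at an adjusted p below 0.05 in the quasi-likelihood test of edgeR, where 24.3% of all tested genes were called, 13.1% rising and 11.2% falling. The median log2 fold change was 1.11, against 0.02 over all tested genes, and it ran between −1.15 (Ccne2) and 3.23 (Tk1). Both estradiol libraries lay above both oil libraries for 34 genes, which also held for 35.5% of all tested genes, and 1 gene lay below and 7 overlapped. The number that rose fell to 12 without deleted estradiol library 1, 10 without deleted estradiol library 2, 13 without deleted oil library 1 and 13 without deleted oil library 2. Of all tested genes 740, 1068, 1317 and 1664 were then called in these same fits, against 3242 with all libraries. Among the 24 genes, Mcm2, Mcm5, Gins2, Lig1, Tk1, Dut, Uhrf1, Chaf1a and E2f1 were called in all 8 fits that left out 1 library.

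In control stroma 30 of the 42 genes rose after estradiol and 0 fell, where 29.8% of all tested genes were called, 15.8% rising and 14% falling. The median log2 fold change was 1.46, against 0.01 over all tested genes, and it ran between 0.04 (Ccne2) and 4.58 (Tk1). Both estradiol libraries lay above both oil libraries for 36 genes, which also held for 33.8% of all tested genes, and 6 overlapped. Leaving out 1 library left 21 to 34 genes called, and 20 of the 30 were called in all 8 such fits. An alternative without both oil libraries 1 was chosen after seeing the data because they lay apart, and it left 1 oil library per genotype. The median log2 fold change of the 42 genes was then 1.22 in control and 1.07 in deleted stroma. Over all tested genes 3978 were called, 1511 when control estradiol library 1 was left out and 1955 when library 2 of that group was.

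**Figure D2:**
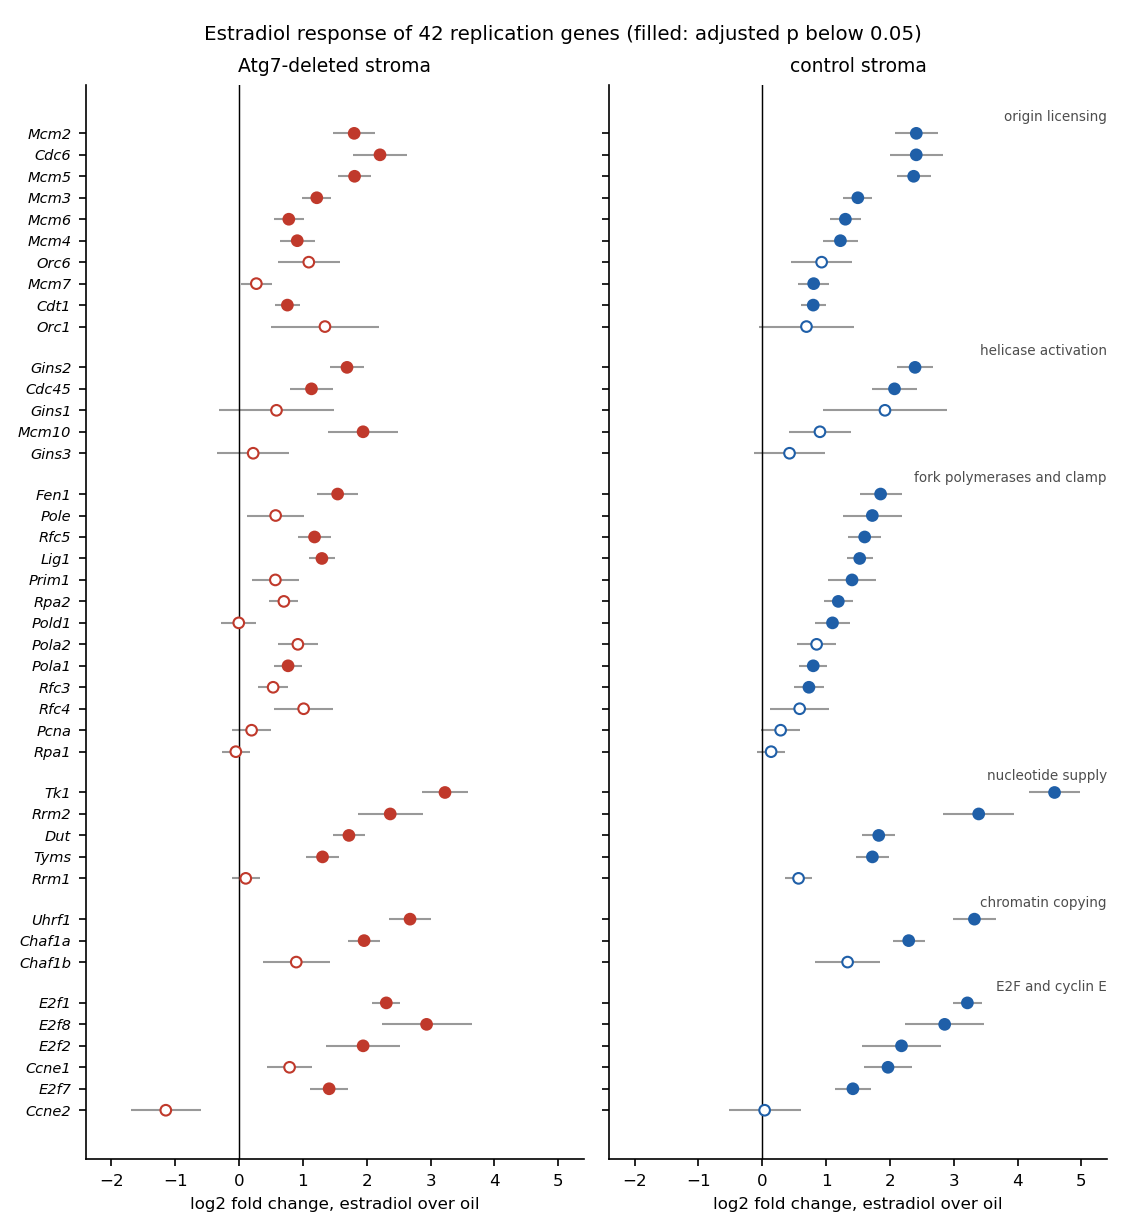
Estradiol response of each of the 42 genes in deleted stroma (left panel) and control stroma (right panel), as log2 fold change of estradiol over oil with its standard error (line), grouped by role and sorted by the response in control stroma. Filled points have an adjusted p below 0.05, which holds for 24 genes in deleted and 30 in control stroma, and Tk1 lies farthest to the right in both panels.

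Among the genes that license origins, 7 of 10 rose in deleted stroma (median log2 fold change 1.16) and 8 of 10 in control stroma (median 1.26). Counts by role, here and below, stand beside 13.1% of all tested genes rising in deleted and 15.8% in control stroma. Mcm2 to Mcm7 form the ring that becomes the helicase. Mcm5 stood at 33.8 and 49.2 CPM after estradiol and 12.8 and 10.9 CPM in oil in deleted stroma, against 42.7 and 57.0 CPM after estradiol and 8.99 and 10.3 CPM in oil in control stroma. Its estradiol libraries lay well apart from its oil libraries in both genotypes, with a log2 fold change of 1.81 ± 0.26 (SE) in deleted stroma (adjusted p = 0.00275) and 2.37 ± 0.27 in control stroma (adjusted p = 0.000898). Mcm2 stood at 47.9 and 56.3 CPM after estradiol and 12.8 and 17.0 CPM in oil in deleted stroma, against 58.4 and 57.3 CPM after estradiol and 6.78 and 15 CPM in oil in control stroma. Its log2 fold change was 1.80 ± 0.32 in deleted stroma (adjusted p = 0.00597) and 2.41 ± 0.33 in control stroma (adjusted p = 0.00182), and control oil library 1 was the lowest of all. Mcm3 rose with a log2 fold change of 1.22 ± 0.23 in deleted stroma and 1.5 ± 0.23 in control stroma. Mcm6 stood at 59.9 and 71.2 CPM after estradiol and 36.0 and 40.3 CPM in oil in deleted stroma, against 70.7 and 82.1 CPM after estradiol and 24.1 and 37.9 CPM in oil in control stroma. It rose in both genotypes, by 0.78 ± 0.24 in deleted stroma (adjusted p = 0.0419) and 1.30 ± 0.24 in control stroma (adjusted p = 0.00536) on the log2 scale, without overlap between the treatments. Mcm4 rose by 0.91 ± 0.27 in deleted stroma (adjusted p = 0.0385) and 1.22 ± 0.27 in control stroma (adjusted p = 0.0111).

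Mcm7, of the same ring, stood at 33.3 and 42.1 CPM after estradiol and 28.0 and 34.5 CPM in oil in deleted stroma, against 55.5 and 58.2 CPM after estradiol and 26 and 39.1 CPM in oil in control stroma. Estradiol and oil libraries overlapped in deleted stroma and did not in control stroma. It had a log2 fold change of 0.27 ± 0.24 in deleted stroma (adjusted p = 0.445) and 0.8 ± 0.24 in control stroma (adjusted p = 0.0345). The difference between these responses was −0.53 ± 0.34 with an unadjusted p of 0.153 and an adjusted p of 1, so a different response of Mcm7 in the genotypes was not shown. Its 3′ end lies beside that of Cops6 on the opposite strand.

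Cdc6 loads the ring onto origins. It stood at 8.10 and 8.09 CPM after estradiol and 1.74 and 1.73 CPM in oil in deleted stroma, against 11.9 and 12 CPM after estradiol and 3.16 and 1.24 CPM in oil in control stroma, and its estradiol libraries lay above its oil libraries in both genotypes. It rose by 2.21 ± 0.43 on the log2 scale in deleted stroma (adjusted p = 0.00808) and 2.41 ± 0.41 in control stroma (adjusted p = 0.00394). Cdt1, its partner in loading, rose by 0.76 ± 0.20 in deleted stroma (adjusted p = 0.0243) and 0.8 ± 0.20 in control stroma (adjusted p = 0.0165). Orc1 and Orc6, subunits of the origin recognition complex, were not called in either genotype. Orc6 stood at 29.7 and 30.6 CPM after estradiol and 11.9 and 16.4 CPM in oil in deleted stroma, against 41.1 and 24.1 CPM after estradiol and 7.89 and 26.6 CPM in oil in control stroma. Control oil library 2 lay among the estradiol libraries, and without it Orc6 was called in control stroma, with a log2 fold change of 2.01 and an adjusted p of 0.00543. In deleted stroma Orc6 was called when either control oil library was left out (adjusted p up to 0.0179). Orc1 was sparse, with 10 to 37 reads per group, and stood at 1.80 and 2.26 CPM after estradiol and 1.42 and 0.158 CPM in oil in deleted stroma, against 1.82 and 3.69 CPM after estradiol and 1.1 and 2.30 CPM in oil in control stroma. Its libraries overlapped in control stroma and not in deleted stroma, with log2 fold changes of 1.35 ± 0.85 in deleted and 0.69 ± 0.75 in control stroma.

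Calls of several of these genes ended on leaving out 1 library, while their log2 fold changes stayed positive. In deleted stroma these ran between 0.733 and 1.12 for Mcm4, 0.65 and 0.898 for Mcm6, and 2.2 and 2.21 for Cdc6. In deleted stroma the calls of Mcm4 and Mcm6 ended on leaving out any 1 of the 4 deleted libraries or either control estradiol library, with adjusted p up to 0.192 for Mcm4 and 0.205 for Mcm6. There Cdt1 was lost on leaving out any 1 of the 4 deleted libraries (adjusted p up to 0.136), Mcm3 without deleted estradiol library 2 (adjusted p = 0.0585), and Cdc6 without deleted estradiol library 1 or deleted oil library 1 (adjusted p up to 0.0554). In control stroma Cdt1 was lost without either estradiol library or oil library 1 (adjusted p up to 0.0772) and Mcm4 without estradiol library 2 (adjusted p = 0.0683). Mcm7 was lost there without either estradiol library of either genotype or control oil library 1 (adjusted p up to 0.129).

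Of the helicase activation genes 3 of 5 rose in deleted stroma (median log2 fold change 1.13) and 2 of 5 in control stroma (median 1.92). Gins2, a subunit of the GINS complex that rides with the helicase, stood at 41.0 and 58.9 CPM after estradiol and 18.2 and 12.8 CPM in oil in deleted stroma, against 54.5 and 67.0 CPM after estradiol and 12.8 and 10.3 CPM in oil in control stroma. Estradiol libraries lay above oil libraries in both genotypes, with a log2 fold change of 1.69 ± 0.27 in deleted stroma (adjusted p = 0.00386) and 2.39 ± 0.28 in control stroma (adjusted p = 0.000952). The other GINS subunits measured were sparse and not called in either genotype. Gins1 had 18 reads after estradiol and 13 in oil in deleted stroma, against 27 after estradiol and 6 in oil in control stroma, which per library is 2.16 and 0.971 CPM after estradiol and 0.948 and 1.1 CPM in oil in deleted stroma, against 1.68 and 2.31 CPM after estradiol and 0 and 1.06 CPM in oil in control stroma. Control oil library 1 held no read of Gins1, and without control oil library 2 the gene was called in control stroma, on a fit against that empty library. Gins3 stood at 1.44 and 2.59 CPM after estradiol and 1.58 and 1.89 CPM in oil in deleted stroma, against 3.21 and 1.69 CPM after estradiol and 2.05 and 1.59 CPM in oil in control stroma. These libraries overlapped in both genotypes, with log2 fold changes of 0.22 ± 0.57 in deleted and 0.43 ± 0.55 in control stroma.

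Cdc45, which joins the ring and GINS in the active helicase, stood at 8.64 and 8.73 CPM after estradiol and 3.95 and 3.94 CPM in oil in deleted stroma, against 13.0 and 10.4 CPM after estradiol and 2.05 and 3.54 CPM in oil in control stroma. The groups did not overlap by treatment, and the log2 fold change was 1.13 ± 0.34 in deleted stroma (adjusted p = 0.0401) and 2.07 ± 0.35 in control stroma (adjusted p = 0.00385). Mcm10, a factor needed to start the helicase, was the gene called in deleted stroma and not in control stroma. It stood at 3.78 and 2.43 CPM after estradiol and 0.790 and 0.788 CPM in oil in deleted stroma, against 3.77 and 3.07 CPM after estradiol and 2.21 and 1.42 CPM in oil in control stroma. The estradiol libraries lay above the oil libraries in both genotypes, and the oil libraries of deleted stroma, with 5 reads each, were the lowest. The log2 fold change was 1.94 ± 0.55 in deleted stroma (adjusted p = 0.0324) and 0.90 ± 0.49 in control stroma (adjusted p = 0.188), and the difference of 1.04 ± 0.74 had an unadjusted p of 0.192. DESeq2, on all 8 libraries, called neither Mcm10 nor Cdc45 in deleted stroma. The calls of Cdc45 and Mcm10 in deleted stroma ended on leaving out any 1 of the 4 deleted libraries or either control estradiol library (adjusted p up to 0.15 and 0.175).

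At the fork 4 of 13 genes rose in deleted stroma (median log2 fold change 0.70) and 9 of 13 in control stroma (median 1.1). The test of a different response between genotypes called 0 of the 13. Lig1, the ligase that joins Okazaki fragments, stood at 126 and 137 CPM after estradiol and 59.3 and 47.6 CPM in oil in deleted stroma, against 143 and 173 CPM after estradiol and 61.7 and 48.0 CPM in oil in control stroma. All 4 estradiol libraries lay above all 4 oil libraries, with a log2 fold change of 1.30 ± 0.21 in deleted stroma (adjusted p = 0.00378) and 1.53 ± 0.21 in control stroma (adjusted p = 0.00166). Fen1, the nuclease that trims the flaps of these fragments, stood at 26.1 and 25.6 CPM after estradiol and 11.2 and 6.46 CPM in oil in deleted stroma, against 27.1 and 24.1 CPM after estradiol and 5.36 and 8.85 CPM in oil in control stroma. It rose by 1.54 ± 0.32 in deleted stroma (adjusted p = 0.0105) and 1.85 ± 0.33 in control stroma (adjusted p = 0.00453). Rfc5, a subunit of the loader that places the clamp on DNA, rose by 1.18 ± 0.26 in deleted stroma (adjusted p = 0.0137) and 1.60 ± 0.26 in control stroma (adjusted p = 0.00336). Pola1, the catalytic subunit of the polymerase that begins each strand, rose by 0.77 ± 0.22 in deleted stroma (adjusted p = 0.0316) and 0.8 ± 0.22 in control stroma (adjusted p = 0.0235).

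Rpa2, Rfc3, Prim1, Pole and Pold1 were called in control stroma and not in deleted stroma. Rpa2, part of the protein that coats single-stranded DNA, stood at 33.6 and 45.1 CPM after estradiol and 22.0 and 26.5 CPM in oil in deleted stroma, against 46.1 and 58.2 CPM after estradiol and 23.3 and 22.3 CPM in oil in control stroma. Its log2 fold change was 0.70 ± 0.23 in deleted stroma (adjusted p = 0.0505) and 1.19 ± 0.23 in control stroma (adjusted p = 0.00598), so it missed the threshold narrowly in deleted stroma, where it was called when either control oil library was left out. Pole, the catalytic subunit of the leading-strand polymerase, stood at 3.24 and 4.04 CPM after estradiol and 2.05 and 2.84 CPM in oil in deleted stroma, against 5.17 and 4.92 CPM after estradiol and 1.1 and 1.95 CPM in oil in control stroma, from 18 to 69 reads per group. Its log2 fold change was 0.57 ± 0.45 in deleted stroma (adjusted p = 0.376) and 1.72 ± 0.46 in control stroma (adjusted p = 0.0226). Prim1, the primase subunit, stood at 5.76 and 8.73 CPM after estradiol and 4.74 and 5.04 CPM in oil in deleted stroma, against 8.24 and 9.68 CPM after estradiol and 2.52 and 4.25 CPM in oil in control stroma. Estradiol libraries lay above oil libraries in both genotypes, with log2 fold changes of 0.57 ± 0.37 in deleted stroma (adjusted p = 0.287) and 1.41 ± 0.38 in control stroma (adjusted p = 0.0231). Rfc3, of the clamp loader, stood at 19.3 and 17.8 CPM after estradiol and 13.9 and 11.7 CPM in oil in deleted stroma, against 22.1 and 22.0 CPM after estradiol and 11.5 and 15 CPM in oil in control stroma. Its treatments did not overlap either, with log2 fold changes of 0.53 ± 0.24 in deleted stroma (adjusted p = 0.128) and 0.73 ± 0.23 in control stroma (adjusted p = 0.0436). Pold1, the catalytic subunit of the lagging-strand polymerase, is given with the comparison of genotypes.

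Pcna, Rpa1, Pola2 and Rfc4 were not called in either genotype. Pcna, the sliding clamp and a widely used marker of proliferating cells, stood at 45.3 and 49 CPM after estradiol and 33.0 and 49.3 CPM in oil in deleted stroma, against 60.2 and 55.3 CPM after estradiol and 32.7 and 62.1 CPM in oil in control stroma. Oil library 2 of each genotype lay at the level of the estradiol libraries, and oil library 1 of each lay below them. Pcna had a log2 fold change of 0.20 ± 0.31 in deleted stroma (adjusted p = 0.673) and 0.29 ± 0.30 in control stroma (adjusted p = 0.504). Without control oil library 2 it was 0.78 in control stroma and was called. Rpa1, the large subunit of the same coat as Rpa2, stood at 49.8 and 59.4 CPM after estradiol and 55.6 and 57.5 CPM in oil in deleted stroma, against 53.8 and 74.1 CPM after estradiol and 65.9 and 50.1 CPM in oil in control stroma. These libraries overlapped in both genotypes, with log2 fold changes of −0.05 ± 0.22 in deleted and 0.14 ± 0.22 in control stroma. Pola2, the B subunit of the polymerase that holds Pola1, stood at 13.9 and 18.1 CPM after estradiol and 6.95 and 9.93 CPM in oil in deleted stroma, against 17.6 and 19.2 CPM after estradiol and 8.05 and 12.4 CPM in oil in control stroma. Its estradiol libraries lay above its oil libraries in both genotypes, with log2 fold changes of 0.92 ± 0.31 in deleted stroma (adjusted p = 0.0591) and 0.85 ± 0.31 in control stroma (adjusted p = 0.063). Pola2 was called in control stroma without control oil library 2 (adjusted p = 0.0302), and in deleted stroma when either control oil library was left out (adjusted p = 0.028). Rfc4, of the clamp loader, stood at 3.42 and 5.50 CPM after estradiol and 1.90 and 2.52 CPM in oil in deleted stroma, against 3.35 and 4.0 CPM after estradiol and 1.89 and 3.01 CPM in oil in control stroma. The treatments did not overlap, and the log2 fold change was 1.01 ± 0.46 in deleted and 0.59 ± 0.46 in control stroma.

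**Figure D3:**
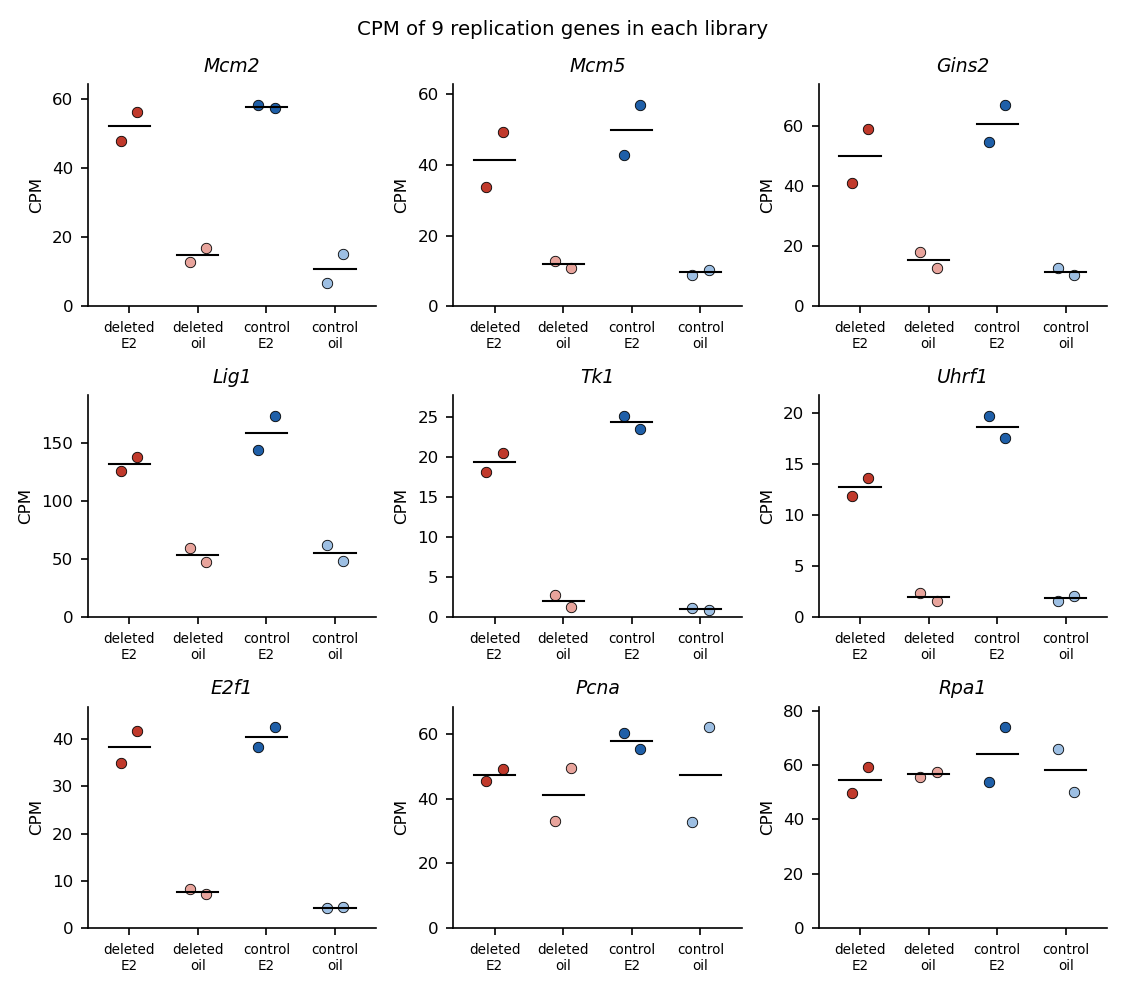
CPM of 9 replication genes in each library. Points are libraries, bars are means of 2 libraries, deleted groups stand left of control groups and estradiol left of oil. For Mcm2, Mcm5, Gins2, Lig1, Tk1, Uhrf1 and E2f1 all 4 estradiol libraries lie above all 4 oil libraries, while for Pcna and Rpa1 they overlap.

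Fork genes also lost calls without single libraries. In control stroma Pola1, Prim1, Pold1 and Pole were lost without either control estradiol library or control oil library 1, with adjusted p up to 0.122 for Pola1, 0.105 for Prim1, 0.0998 for Pold1 and 0.0998 for Pole. Rfc3 kept its call there only without control oil library 2 (adjusted p up to 0.169 in the other 7 fits). In deleted stroma Pola1 was lost on leaving out any 1 of the 4 deleted libraries or control estradiol library 2 (adjusted p up to 0.159). Rfc5 was lost there without deleted estradiol library 2 or either deleted oil library (adjusted p up to 0.11), and Fen1 without either deleted estradiol library or deleted oil library 2 (adjusted p up to 0.0717).

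Nucleotide supply genes rose in 4 of 5 cases in deleted stroma (median log2 fold change 1.72) and 4 of 5 in control stroma (median 1.82). Tk1 (chr11:117815526-117826092, minus strand), the cytosolic thymidine kinase that salvages thymidine in S phase, stood at 18.2 and 20.5 CPM after estradiol and 2.84 and 1.26 CPM in oil in deleted stroma, against 25.1 and 23.5 CPM after estradiol and 1.1 and 0.885 CPM in oil in control stroma. It had 228 reads after estradiol and 26 in oil in deleted stroma, against 333 after estradiol and 12 in oil in control stroma. It rose by 3.23 ± 0.36 on the log2 scale in deleted stroma (adjusted p = 0.00136) and 4.58 ± 0.40 in control stroma (adjusted p = 0.000379), the largest of the 42 genes in each. Rrm2, the S phase subunit of ribonucleotide reductase, stood at 7.38 and 10.7 CPM after estradiol and 1.42 and 2.05 CPM in oil in deleted stroma, against 8.10 and 13.5 CPM after estradiol and 0.473 and 1.59 CPM in oil in control stroma. Estradiol libraries lay above oil libraries in both genotypes, with a log2 fold change of 2.37 ± 0.51 in deleted stroma (adjusted p = 0.0121) and 3.39 ± 0.55 in control stroma (adjusted p = 0.00326).

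Rrm1, the large subunit of the same enzyme, was not called in either genotype. It stood at 33.3 and 38.8 CPM after estradiol and 30.7 and 36.4 CPM in oil in deleted stroma, against 52.8 and 53.5 CPM after estradiol and 30.1 and 41.6 CPM in oil in control stroma. Deleted estradiol and oil libraries overlapped, and control estradiol libraries lay above control oil libraries. Rrm1 had a log2 fold change of 0.11 ± 0.22 in deleted stroma (adjusted p = 0.753) and 0.57 ± 0.21 in control stroma (adjusted p = 0.0739). Without control oil library 2 it was called in control stroma (0.78, adjusted p = 0.0262). Dut, which removes dUTP, rose by 1.72 ± 0.26 in deleted stroma (adjusted p = 0.00301) and 1.82 ± 0.26 in control stroma (adjusted p = 0.00191). Tyms, the thymidylate synthase, rose by 1.31 ± 0.25 in deleted stroma (adjusted p = 0.00796) and 1.73 ± 0.26 in control stroma (adjusted p = 0.00236). The pseudogene Tyms-ps is counted separately, with 1 to 27 reads per library beside 39 to 166 of Tyms, and how reads that fit both were handled is not given. In deleted stroma Rrm2 and Tyms were lost without either deleted estradiol library or deleted oil library 1 (adjusted p up to 0.0809 for Rrm2 and 0.0588 for Tyms).

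Chromatin copying genes rose in 2 of 3 cases in each genotype, with a median log2 fold change of 1.96 in deleted and 2.29 in control stroma. Uhrf1, which brings the maintenance DNA methyltransferase to newly copied DNA, stood at 11.9 and 13.6 CPM after estradiol and 2.37 and 1.58 CPM in oil in deleted stroma, against 19.7 and 17.5 CPM after estradiol and 1.58 and 2.12 CPM in oil in control stroma. All estradiol libraries lay far above all oil libraries, with a log2 fold change of 2.68 ± 0.33 in deleted stroma (adjusted p = 0.00174) and 3.32 ± 0.34 in control stroma (adjusted p = 0.000711). Chaf1a, the large subunit of the histone chaperone CAF-1, stood at 17.5 and 17.6 CPM after estradiol and 4.58 and 4.41 CPM in oil in deleted stroma, against 19.8 and 21.2 CPM after estradiol and 4.26 and 4.07 CPM in oil in control stroma. Its replicates lay close together, and it rose by 1.96 ± 0.25 in deleted stroma (adjusted p = 0.00186) and 2.29 ± 0.25 in control stroma (adjusted p = 0.000897). Chaf1b, the middle subunit, stood at 2.52 and 4.53 CPM after estradiol and 2.05 and 1.73 CPM in oil in deleted stroma, against 3.77 and 6.92 CPM after estradiol and 1.74 and 2.48 CPM in oil in control stroma, from 24 to 72 reads per group. Its treatments did not overlap, but it did not pass the test, with log2 fold changes of 0.90 ± 0.52 in deleted stroma (adjusted p = 0.237) and 1.34 ± 0.50 in control stroma (adjusted p = 0.0745).

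Among the E2F factors and E cyclins 4 of 6 rose in deleted stroma (median log2 fold change 1.68) and 5 of 6 in control stroma (median 2.08). E2f1 (chr2:154559407-154569892, minus strand), an activator of replication genes, stood at 34.9 and 41.7 CPM after estradiol and 8.22 and 7.25 CPM in oil in deleted stroma, against 38.3 and 42.6 CPM after estradiol and 4.26 and 4.43 CPM in oil in control stroma. Its estradiol libraries lay above its oil libraries in both genotypes, and in oil both deleted libraries lay above both control libraries. It rose by 2.31 ± 0.22 on the log2 scale in deleted stroma (adjusted p = 0.000766) and 3.21 ± 0.23 in control stroma (adjusted p = 0.000252). E2f2, another activator, rose by 1.94 ± 0.58 in deleted stroma (adjusted p = 0.0383) and 2.18 ± 0.62 in control stroma (adjusted p = 0.0285), with 12 to 73 reads per group. E2f7 and E2f8 are repressors that E2f1 is known to induce. E2f8 stood at 4.14 and 3.4 CPM after estradiol and 0.790 and 0.158 CPM in oil in deleted stroma, against 7.68 and 5.99 CPM after estradiol and 0.473 and 1.42 CPM in oil in control stroma, with 6 reads in all in deleted oil libraries. It rose by 2.94 ± 0.71 in deleted stroma (adjusted p = 0.0179) and 2.86 ± 0.62 in control stroma (adjusted p = 0.0101). E2f7 rose by 1.41 ± 0.29 in deleted stroma (adjusted p = 0.0106) and 1.42 ± 0.28 in control stroma (adjusted p = 0.00745).

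The E cyclins activate Cdk2 at the entry into S phase. Ccne1 stood at 6.84 and 6.31 CPM after estradiol and 3.48 and 4.10 CPM in oil in deleted stroma, against 6.84 and 7.07 CPM after estradiol and 1.42 and 2.12 CPM in oil in control stroma. The estradiol libraries of both genotypes lay close together, and the control oil libraries were the lowest. Its log2 fold change was 0.79 ± 0.35 in deleted stroma (adjusted p = 0.126) and 1.97 ± 0.38 in control stroma (adjusted p = 0.00625). Ccne2 stood at 1.98 and 2.26 CPM after estradiol and 2.53 and 6.93 CPM in oil in deleted stroma, against 2.65 and 2.15 CPM after estradiol and 2.05 and 2.66 CPM in oil in control stroma. Deleted oil library 2 was the highest, and the other 7 libraries lay close together. The log2 fold change of Ccne2 was −1.15 ± 0.55 in deleted stroma (adjusted p = 0.153) and 0.04 ± 0.56 in control stroma (adjusted p = 0.967), so no change was shown in either. Without both oil libraries 1 it was −1.70 in deleted stroma, on a fit where the high library 2 was the only deleted oil library. Without deleted oil library 2 it was −0.249 there. The call of E2f2 ended in control stroma on leaving out any 1 of the 4 control libraries (adjusted p up to 0.0965), and in deleted stroma on leaving out any 1 estradiol library of either genotype or deleted oil library 2 (adjusted p up to 0.244). E2f8 was lost without control estradiol library 1 in control stroma (adjusted p = 0.0644), and without either deleted estradiol library or deleted oil library 2 in deleted stroma (adjusted p up to 0.0973). E2f7 was lost in deleted stroma without deleted estradiol library 2 or either deleted oil library (adjusted p up to 0.0756).

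Of the 42 genes, 23 were called in both genotypes, which is 95.8% of their calls in deleted stroma and 76.7% of those in control stroma. Over all tested genes 2699 (20.2%) were called in both in the same direction, which is 83.3% of the calls in deleted and 67.8% of those in control stroma. Mcm10 was called in deleted stroma alone, and Mcm7, Rfc3, Rpa2, Prim1, Pold1, Pole and Ccne1 in control stroma alone. Orc1, Orc6, Gins1, Gins3, Pcna, Rfc4, Rpa1, Pola2, Rrm1, Chaf1b and Ccne2 were called in neither. Across the 42 genes the 2 responses, which share no library, had a Pearson correlation of 0.849 and a Spearman correlation of 0.8, as a description over genes that are not independent. The fitted response was smaller in deleted than in control stroma for 36 of the 42, as it was for 51.1% of all tested genes. The test of a different response between genotypes called 0 of the 42. At least a 2-fold change (log2 of 1 or more) with a call was seen for 20 genes in deleted and 26 in control stroma, and log2 of 2 or more for 6 in deleted and 12 in control stroma. Shares at these sizes were not taken over all tested genes, of which 24.3% in deleted and 29.8% in control stroma were called at any size. These counts therefore describe the 42 genes alone.

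**Figure D4:**
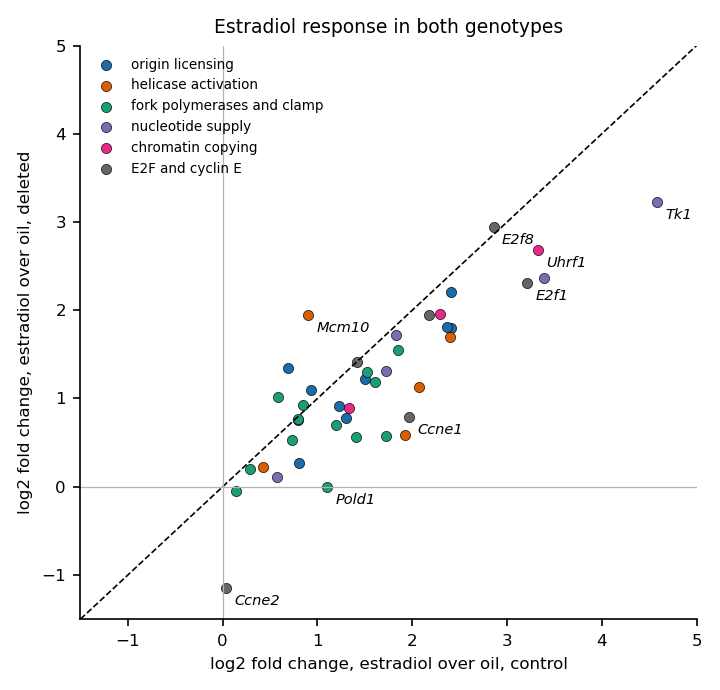
Log2 fold change of estradiol over oil in deleted stroma (vertical axis) against that in control stroma (horizontal axis), 1 point per gene, coloured by role, with equal responses on the dashed line. Most points (36 of 42) lie below the line, and the interaction test called 0 of them.

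Whether the estradiol response itself differed between genotypes was tested as the interaction. In edgeR 0 of 42 genes and 0% of all tested genes were called, and DESeq2 likewise called 0 of either. At an unadjusted p below 0.05 stood 4 of the 42 genes, E2f1, Pold1, Tk1 and Ccne1, against 1.57% of all tested genes (210), and DESeq2 placed 1 of the 42 there. Leaving out 1 library moved this count between 0 (without deleted estradiol library 1) and 11 (without control oil library 2), and that of all tested genes between 133 and 977 in the same 2 fits. The difference, deleted minus control, was below 0 for 85.7% of the 42 genes, against 51.1% of all tested genes, with a median of −0.38 on the log2 scale, against −0.01. It ran between −1.35 (Tk1) and 1.04 (Mcm10). The 95% interval of a gene's difference had a median width of 2.0 log2 units, so that differences of moderate size were not detectable here. The median moved to −0.62 without deleted estradiol library 2 and −0.60 without control oil library 2.

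Pold1 (chr7:44532746-44548849, minus strand) stood at 11.2 and 11.6 CPM after estradiol and 10.4 and 12.4 CPM in oil in deleted stroma, against 17.7 and 15.8 CPM after estradiol and 6.31 and 9.38 CPM in oil in control stroma. After estradiol the deleted libraries lay within the range of the deleted oil libraries and below both control libraries, while control estradiol libraries lay above control oil libraries. Its log2 fold change was −0.0045 ± 0.28 in deleted stroma (adjusted p = 0.992) and 1.1 ± 0.28 in control stroma (adjusted p = 0.0185). The difference was −1.1 ± 0.39 (95% interval −1.99 to −0.22, unadjusted p = 0.0199, adjusted p = 1). For E2f1 the difference was −0.91 ± 0.31 (95% interval −1.62 to −0.20, unadjusted p = 0.0178, adjusted p = 1). For Tk1 it was −1.35 ± 0.56 (95% interval −2.62 to −0.08, unadjusted p = 0.0394) and for Ccne1 −1.18 ± 0.51 (95% interval −2.34 to −0.02, unadjusted p = 0.0476), both with an adjusted p of 1.

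After estradiol 0 of 42 genes differed between deleted and control stroma, and 0% of all tested genes did, in edgeR and in DESeq2 alike. At an unadjusted p below 0.05 stood 2 of the 42 genes in either tool, against 3.02% of all tested genes (403) in edgeR. This count was 0 without either control estradiol library or deleted estradiol library 1, 3 without either control oil library or deleted estradiol library 2, 0 with library totals as the scale, and 5 in a fit of the 2 estradiol groups alone. Values of deleted over control lay below 0 for 90.5% of the 42 genes, against 52.1% of all tested genes, with a median of −0.27, against −0.01. Both deleted libraries lay below both control libraries for 20 of the 42 (47.6%), against 18.2% of all tested genes, and above them for 0 of the 42, against 16% of all tested genes. Medians by role were −0.24 for licensing, −0.28 for helicase activation, −0.27 for the fork, −0.25 for nucleotide supply, −0.55 for chromatin copying and −0.13 for E2F factors and E cyclins. Deleted estradiol library 1 was below library 2 for 34 of the 42 genes, and leaving out 1 library at a time kept the median between −0.38 and −0.18.

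Rrm1 and Mcm7 were the pair with an unadjusted p below 0.05 after estradiol. For Rrm1 the deleted libraries stood at 33.3 and 38.8 CPM and the control libraries at 52.8 and 53.5 CPM, without overlap (log2 fold change −0.56 ± 0.21, 95% interval −1.04 to −0.08, unadjusted p = 0.0281). For Mcm7 the deleted libraries stood at 33.3 and 42.1 CPM and the control libraries at 55.5 and 58.2 CPM, without overlap (log2 fold change −0.59 ± 0.24, 95% interval −1.13 to −0.05, unadjusted p = 0.0355). Next in order were Pold1 (−0.56), Uhrf1 (−0.55) and Rpa2 (−0.40), and the adjusted p was 1 for each of the 42 genes. E2f2 (0.41), Rfc4 (0.28), Fen1 and Pola1 (0.01 each) were the 4 genes with a value above 0.

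In oil 0 of 42 genes and 0% of all tested genes were called between deleted and control stroma, in edgeR and in DESeq2. Here the median width of the 95% interval was 1.4 log2 units over the 42, so differences of moderate size could again go uncalled. At an unadjusted p below 0.05 stood 2 of the 42 genes in edgeR and 1 in DESeq2, against 2.54% of all tested genes (339) in edgeR. It was 7, beside 1587 of all tested genes, without control oil library 2, 4 without deleted oil library 1, and 0 in a fit of the 2 oil groups alone. The log2 fold change was above 0 for 22 genes and below 0 for 20, with a median of 0.06, against −0.01 over all tested genes. Both deleted libraries lay above both control libraries for 10 of the 42 (12.9% of all tested genes) and below them for 2 (11.6% of all tested genes). E2f1, at 8.22 and 7.25 CPM in deleted and 4.26 and 4.43 CPM in control libraries, had a log2 fold change of 0.83 ± 0.24 (95% interval 0.28 to 1.38, unadjusted p = 0.00771). Ccne1, at 3.48 and 4.10 CPM in deleted and 1.42 and 2.12 CPM in control libraries, had 1.1 ± 0.39 (95% interval 0.21 to 1.98, unadjusted p = 0.0209). Tk1 (1.02), Mcm10 (−1.19) and Pold1 (0.55) followed, and no adjusted p was below 1. Without control oil library 2 the median of the 42 genes was 0.24. The 2 comparisons of genotype and the interaction share libraries with the estradiol comparisons, so their values are not separate evidence.

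**Figure D5:**
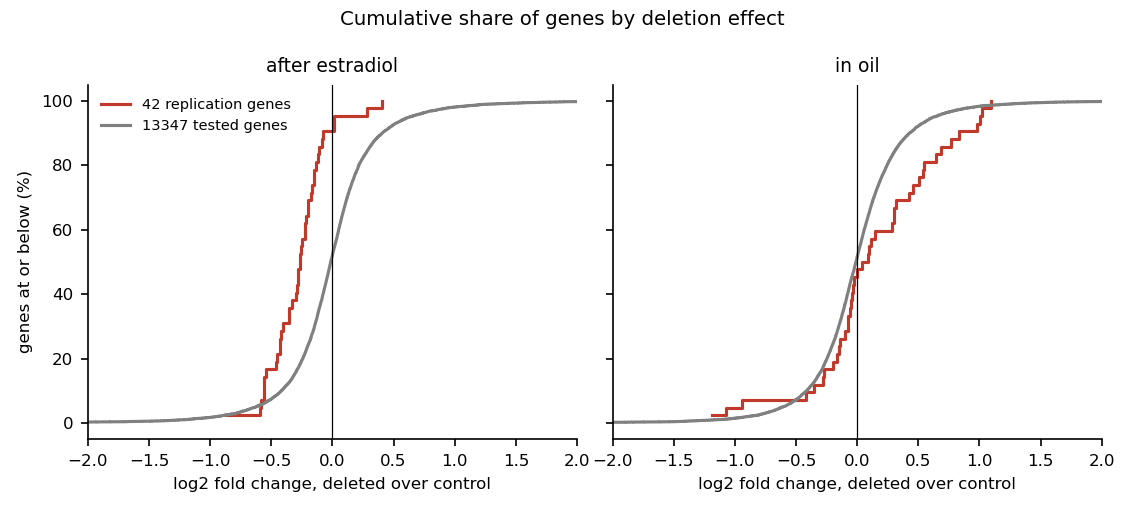
Cumulative share of genes (%) at or below each log2 fold change of deleted over control stroma, after estradiol (left) and in oil (right), for the 42 replication genes (red) and all 13347 tested genes (grey). After estradiol the red curve lies left of the grey one, with 90.5% of the 42 genes below 0, while in oil 47.6% of them lie below 0.

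Further genes of the same pathways were read from lists of 104 symbols, of which 102 were tested (all but Mcm9 and Pold4). In deleted stroma 25 rose after estradiol and 6 fell (median log2 fold change 0.44), and in control stroma 37 rose and 7 fell (median 0.69). Counts in these lists stand beside 13.1% of all tested genes rising and 11.2% falling in deleted stroma, and 15.8% rising and 14% falling in control stroma. Those of the E2F, pocket protein and cyclin list lie near these shares. In deleted stroma the rising counts of the licensing and firing list and of the checkpoint and repair list lie about as near. The lists are small, so a few genes separate their counts from these shares. Of 15 further licensing and firing genes 3 rose in deleted and 4 in control stroma. Gmnn, the inhibitor of Cdt1, stood at 10.6 and 13.3 CPM after estradiol and 2.05 and 1.89 CPM in oil in deleted stroma, against 18.7 and 19.8 CPM after estradiol and 3.31 and 3.19 CPM in oil in control stroma, and rose by 2.59 ± 0.31 in deleted stroma and 2.56 ± 0.29 in control stroma. Of 21 further fork genes 6 rose in deleted stroma, and 12 rose and 1 fell in control stroma. Clspn, the checkpoint mediator at the fork, rose by 1.94 ± 0.39 in deleted and 2.67 ± 0.40 in control stroma. Pold2, the partner subunit of Pold1, rose by 1.1 ± 0.22 in deleted and 1.48 ± 0.22 in control stroma. Top1, a topoisomerase that also serves transcription, fell in control stroma (−0.8 ± 0.20, adjusted p = 0.0163), and had −0.42 ± 0.19 in deleted stroma (adjusted p = 0.145).

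Of 14 further nucleotide supply genes 4 rose and 1 fell in deleted stroma, and 5 rose and 1 fell in control stroma. Cad, which starts pyrimidine synthesis, rose by 1.23 ± 0.20 in deleted and 2.0 ± 0.21 in control stroma. Tk2, the mitochondrial thymidine kinase, fell where Tk1 rose. It stood at 15.3 and 12.9 CPM after estradiol and 25.9 and 25.8 CPM in oil in deleted stroma, against 11.5 and 10.8 CPM after estradiol and 25.7 and 29.2 CPM in oil in control stroma, with a log2 fold change of −0.87 ± 0.21 in deleted and −1.30 ± 0.21 in control stroma. Of 11 further chromatin copying genes 3 rose in deleted and 4 in control stroma. Dnmt1, the maintenance methyltransferase recruited by Uhrf1, rose by 1.20 ± 0.19 in deleted and 1.74 ± 0.19 in control stroma.

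Of 24 further E2F, pocket protein and cyclin genes 5 rose and 4 fell in each genotype. Ccna2, the cyclin that follows cyclin E in S phase, stood at 19.6 and 20.2 CPM after estradiol and 2.69 and 2.21 CPM in oil in deleted stroma, against 34.9 and 32.3 CPM after estradiol and 2.52 and 3.01 CPM in oil in control stroma, and rose by 3.02 ± 0.27 in deleted and 3.6 ± 0.26 in control stroma. Cdkn1c and Cdkn1a, inhibitors of cyclin-dependent kinases, fell in both genotypes. Cdkn1c stood at 16.7 and 19.4 CPM after estradiol and 88.2 and 98.8 CPM in oil in deleted stroma, against 27.9 and 22.7 CPM after estradiol and 73.5 and 86.0 CPM in oil in control stroma, with a log2 fold change of −2.37 ± 0.21 in deleted and −1.65 ± 0.20 in control stroma. Cdkn1a stood at 129 and 132 CPM after estradiol and 274 and 315 CPM in oil in deleted stroma, against 160 and 151 CPM after estradiol and 350 and 376 CPM in oil in control stroma, with −1.17 ± 0.16 in deleted and −1.22 ± 0.16 in control stroma. Of 17 checkpoint and repair genes 4 rose and 1 fell in deleted stroma, and 7 rose and 1 fell in control stroma. Wee1, the kinase that holds back Cdk1, fell, with −1.48 ± 0.30 in deleted and −1.69 ± 0.30 in control stroma. Calls of Clspn, Pold2, Tk2 and Wee1 in deleted stroma ended without 1 or more of the deleted libraries (adjusted p up to 0.125), and that of Top1 in control stroma without either control estradiol library (adjusted p up to 0.0988).

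Genes of mitosis, the step that follows replication, were read as 8 markers (Mki67, Top2a, Cdk1, Ccnb1, Aurkb, Bub1, Plk1 and Cdc20). Their summed level was 168 and 229 CPM after estradiol and 49.9 and 50.1 CPM in oil in deleted stroma, against 282 and 336 CPM after estradiol and 37.4 and 29.9 CPM in oil in control stroma. After estradiol both deleted libraries lay below both control libraries. The ratio of estradiol to oil in these sums was 3.97 in deleted and 9.19 in control stroma. For the sum of the 42 replication genes it was 1.96 in deleted and 2.43 in control stroma. Genes of high level weigh most in such sums. The median fold change per gene was 4.79 in deleted and 8.63 in control stroma for the 8 markers. For the 42 genes it was 2.16 in deleted and 2.75 in control stroma. Of the 8, 7 rose in deleted stroma and 8 in control stroma, against 13.1% and 15.8% of all tested genes. The interaction called 0 of the 8, so a different response was not shown for any of them. All 8 differences were below 0, and 3 had an unadjusted p below 0.05 in edgeR, against 1.57% of all tested genes. For deleted over control after estradiol the median log2 fold change was −0.66, all 8 were below 0, and 0 were called. An unadjusted p below 0.05 in edgeR was seen for 4, against 3.02% of all tested genes.

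At the 3′ ends, where this kit counts, 7 of the 42 genes have a neighbouring gene on the opposite strand within 500 bases before or 100 bases after their own end. They are Mcm7 with Cops6, Gins2 with Gse1, Rfc4 with Eif4a2, Rfc5 with Wsb2, Chaf1a with Ubxn6, E2f7 with 1700020G17Rik and Ccne2 with Ints8. Whether counting used the strand is not given in the sources used here, and without it reads of such a pair cannot be told apart.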

How the data were processed

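The authors deposited 1 file per library with raw read counts per gene symbol, taken as counts from their whole values and differing totals. Per the labels' protocols, 500 ng of total RNA went into each QuantSeq 3′ library. Bowtie2, edgeR and the build mm10 are named in the submitters' processing notes, without versions or roles. The read counter, its annotation and its use of strand are not stated in the labels or the files. Of 23282 lines, 35 symbols stood on 79 lines, none of them among the 42 genes. Of each such symbol the line with most counts was used, and the rest held 0.0973% of counts.

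Genes were filtered with filterByExpr of edgeR 4.0.16 in R 4.3.3 (minimum count 10, minimum total 15), which left 13347 genes with 99.9% of counts, and scaled by TMM (factors 0.918 to 1.03). Because the filter needs reads in as few as 2 libraries, a gene could pass through 1 group alone. Quasi-likelihood tests came from a single model of 4 group means (4 residual and 5.08 prior degrees of freedom, biological coefficient of variation 21.8%). P-values were adjusted over all 13347 genes by Benjamini and Hochberg, and a call is an adjusted p below 0.05. Standard errors came from the fold change and its test statistic, and CPM used the TMM-scaled library sizes. DESeq2 1.42.0, other scalings and filters, fits without each library and fits with a replicate block were run as alternatives.

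All 42 genes are reported by role. Library values are given for genes with the highest level or the largest or smallest estradiol response of their role, for the 5 smallest p-values where fewer than 3 genes were called between genotypes, and for genes not called after estradiol. From further lists, up to 2 genes with the smallest adjusted p in control stroma and those called against the majority were taken, and others are named by counts or single values. The genes and lists were chosen with earlier results of these data known. Gene coordinates are from GENCODE M21 (GRCm38, the assembly behind mm10), and promoters from RefSeq (GRCm38.p6).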

Additional observations from a re-analysis of the deposited data

How the results depend on the processing

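Under 16 alternatives, the number of replication genes called after estradiol stayed within 1.5 times its value in control stroma, and left it in deleted stroma without single libraries. Leaving out 1 library gave 740 to 4375 called genes in deleted stroma, with 10 to 27 of the 42, and 1511 to 4173 in control stroma, with 21 to 34 of the 42. Fitting the control groups alone gave 2342 called genes. DESeq2 called 22 of the 42 in deleted and 29 in control stroma. The median log2 fold change of the 42 genes ran between 1.065 and 1.28 in deleted stroma and between 1.24 and 1.63 in control stroma without 1 library. For deleted over control in oil it ran between 0.048 and 0.24, and for the interaction between −0.62 and −0.30. Without both oil libraries 1, an alternative chosen after seeing the data, the median log2 fold change was 1.22 in control stroma. Calls between genotypes were 0 of the 42 in every alternative.

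Genes that were not called changed sign under single settings, and the cause was not tested. Pold1 in deleted stroma was at 0.021 with library totals as the scale, 0.0030 with all genes with a read, and between −0.13 and 0.13 without 1 library. Without 1 library, log2 fold changes in deleted stroma ran between −0.078 and 1.06 for Gins1, −0.27 and 0.57 for Gins3, −0.064 and 0.51 for Pcna, −0.18 and 0.070 for Rpa1, and −0.013 and 0.23 for Rrm1. In control stroma they ran between −0.11 and 0.81 for Gins3, −0.11 and 0.78 for Pcna, −0.11 and 0.35 for Rpa1, and −0.14 and 0.19 for Ccne2. Without both oil libraries 1, Pcna was at −0.0653 and Rrm1 at −0.0146 in deleted stroma, and Pcna at −0.13 and Ccne2 at −0.16 in control stroma.

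Same-numbered libraries did not deviate together in every pair (correlation of deviations 0.494 between deleted and control oil, 0.23 between deleted and control estradiol, −0.00907 between deleted estradiol and oil, −0.231 between control estradiol and oil), so the numbers were not taken to pair samples. A fit with a replicate block called 3423 genes in deleted stroma, 25 of the 42, and 4094 in control stroma, 31 of the 42. It called Pola2 in both genotypes, Rrm1 in control stroma and Rpa2 in deleted stroma, and it lost Rfc3 in control stroma and E2f2 in deleted stroma. With crossed numbers in the control groups, added after seeing the data, 4445 genes were called, 31 of the 42. Depth limits genes with few reads: the 64 reads of Gins1 over all libraries gave wide errors.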
